A study of Rattus norvegicus with 862 samples.

Results

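Dexchlorpheniramine is the dextrorotatory isomer of chlorpheniramine, an antihistamine that blocks the H1 receptor and, more weakly, muscarinic receptors. The hearts of 6 rats that received it were set against those of 17 rats that received water alone, chosen by label from 862 arrays of rat heart covering many compounds. The treated rats received dexchlorpheniramine at 47 mg/kg in water by oral gavage for 3 d (3 rats) or 5 d (3 rats). The controls received water by oral gavage at dose 0 for 3 d (8 rats) or 5 d (9 rats), and their RNA was extracted in the same campaign as that of the treated rats. All 23 rats were male Sprague-Dawley rats, bought at 6 to 8 weeks of age and acclimated for 1 week, and each contributed 1 array of whole-heart RNA.

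Histamine reaches the heart from mast cells and nerves. The H1 receptor signals through Gq and calcium, and the H2 receptor through cyclic AMP, which raises the rate and force of contraction. Heart muscle under load or injury transcribes a set of genes for actin-binding proteins of the Z disc and intercalated disc, for ligands of the epidermal growth factor receptor, for the TWEAK receptor and for heme oxygenase. Fasting and glucocorticoids raise a partly separate set, of which pyruvate dehydrogenase kinase 4 is the best known member.

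After 3 d of dexchlorpheniramine, 31 genes were called higher than in the water controls, among them Xirp1, Flnc, Abra, Lmcd1, Tnfrsf12a, Areg, Hbegf, Hmox1 and Pdk4, and 2 were called lower, of which G0s2 is 1. Of the list of hypertrophy and stretch genes, 1 of 9 measured was called, and of that of matrix and injury genes 0 of 18, with a median change of -0.14. Of all genes 0.232% were called. After 5 d no gene was called. Genes of histamine receptors and histamine metabolism were called at neither duration. Averaged over both durations no gene was called either.

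Levels are given on the log2 scale of the arrays, on which 1 unit is a doubling, and changes are dexchlorpheniramine minus water control. Called genes are those that changed at least 1.5-fold with a p of at most 0.01 in limma's moderated test, after Benjamini-Hochberg adjustment over 14217 genes. Nothing in the labels pairs the rats across groups, and rats of a group are numbered only to name them.

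The arrays of the treated rats correlated with the mean of all arrays at 0.985 to 0.995. Among the controls, water control 5 d replicate 3 (0.924) and water control 3 d replicate 1 (0.968), both of 1 in-life study by their animal codes, stood apart from the other 15. Heart muscle markers had a median level of 13.5 to 13.9 in the treated rats, against 12.4 to 13.9 in the controls. Atrial markers had medians of 6.25 to 7.88 in the treated rats, against 6.29 and upwards in the controls, and reached 13.5 in water control 3 d replicate 1 and 11.4 in water control 3 d replicate 5. Treated rat 1 of 5 d had a fast skeletal muscle marker median of 7.67, against at most 5.69 in any control. All 6 treated rats carried the same animal code and RNA extraction day, and only 1 control at each duration carried that code. Results are therefore also given against that control alone.

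The promoters of 4 of the genes called higher at 3 d are shown because they hold a short motif that factors active in loaded heart muscle bind. Each is the 250 bases before a RefSeq start site in the GRCr8 build of the rat genome, written 5′ to 3′ on the gene's strand. In the upper pair the capitals mark AP-1 motifs, TGAGTCA or TGACTCA, and in the lower pair the TEAD motif, GGAATG or its reverse complement CATTCC.
Xirp1 (chr8:128635012-128635261, minus strand): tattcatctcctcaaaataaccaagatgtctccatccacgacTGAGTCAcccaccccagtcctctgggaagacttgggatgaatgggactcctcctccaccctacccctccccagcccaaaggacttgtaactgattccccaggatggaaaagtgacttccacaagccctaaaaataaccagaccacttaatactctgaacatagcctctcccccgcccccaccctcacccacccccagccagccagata
Klhl40 (chr8:130318543-130318792, plus strand): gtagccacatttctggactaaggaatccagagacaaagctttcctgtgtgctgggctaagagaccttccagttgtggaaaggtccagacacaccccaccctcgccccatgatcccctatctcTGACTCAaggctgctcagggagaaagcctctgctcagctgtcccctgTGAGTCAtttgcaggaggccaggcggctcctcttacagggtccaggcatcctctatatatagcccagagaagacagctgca
Flnc (chr4:58999297-58999546, plus strand): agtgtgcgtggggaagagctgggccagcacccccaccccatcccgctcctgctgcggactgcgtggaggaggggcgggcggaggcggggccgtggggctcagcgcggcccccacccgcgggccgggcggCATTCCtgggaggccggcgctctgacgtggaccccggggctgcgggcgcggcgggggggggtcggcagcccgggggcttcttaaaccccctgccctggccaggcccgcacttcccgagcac
Noct (chr2:137421824-137422073, plus strand): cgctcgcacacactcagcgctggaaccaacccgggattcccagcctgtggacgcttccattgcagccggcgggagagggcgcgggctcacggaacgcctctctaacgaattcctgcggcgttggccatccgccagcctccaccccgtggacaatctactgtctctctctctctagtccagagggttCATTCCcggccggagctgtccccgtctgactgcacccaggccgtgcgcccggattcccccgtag

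Of the 31 genes, 26 had such a window. The AP-1 motif was present in 2 of these 26, or 7.69%, against 4.42% of all 27457 genes with a window, whether or not they were tested here. The TEAD motif was present in 6 (Fam107a, Flnc, Ifnlr1, Kcna5, Noct and Sphk1), or 23.1%, against 12.9% of all genes, and the 10-base CArG motif of serum response factor in 0, against 1.62%. The E-box motif, CACGTG, was present in 1 (Maff), or 3.85%, against 6.18%. These are matches of letters on either strand, and nothing was measured here about the factors.

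At 3 d, 33 genes were called, 31 higher and 2 lower. That was 0.232% of all genes tested (0.218% higher and 0.0141% lower), and 72 genes (0.506%), 63 of them higher (0.443%), passed an adjusted p of 0.05 with no minimum fold change. The genes named from this comparison were chosen, and grouped by what they encode, after their values were seen, and no test was made of these groups. Changes of the 31 higher genes ran from 0.65 to 2.49 on the log2 scale, with a median of 1.70, and over all genes the median change was -0.05. In 29 of the 31, all 3 treated rats were above all 8 controls of 3 d, which held for 1.28% of all genes.

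Called genes whose products bind or act on actin, or are known from muscle, are given together. Xirp1, which encodes the intercalated disc protein Xin, had levels of 13.07, 12.05 and 11.12 in the 3 treated rats of 3 d, against a lowest, median and highest level of 9.60, 9.98 and 10.82 in the 8 controls. Flnc, the Z disc actin cross-linker filamin C, had levels of 12.09, 11.43 and 10.50 in the treated rats, against 9.25, 9.67 and 9.95 in the controls. For both genes every treated rat was above every control, treated rat 1 was the highest and treated rat 3 the lowest of the treated. Xirp1 differed by 2.05 ± 0.29 (SE, 4.15-fold, adjusted p = 0.000393) and Flnc by 1.71 ± 0.21 (SE, 3.27-fold, adjusted p = 0.000102) in limma.

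Abra, an actin-binding protein of striated muscle, had levels of 12.03, 11.32 and 10.55 in treated rats, against 8.02, 8.56 and 10.14 (lowest, median and highest) in controls, a difference of 2.49 ± 0.46 (SE, adjusted p = 0.0083). Lmcd1, a LIM domain protein of heart muscle, was at 11.68, 11.16 and 10.57 in treated rats, against 8.85, 9.05 and 9.78 in controls (1.98 ± 0.22, adjusted p = 1.88e-05). The treated and control rats did not overlap in either gene, and the order of the treated rats was again 1, 2, 3. Klhl40, a kelch protein that stabilises thin filament proteins of muscle, was at 10.27, 9.84 and 8.04 in treated rats, against 6.87, 7.10 and 7.95 in controls, so that treated rat 3 stood only just above the highest control. Rnd1, a small GTPase that loosens actin structures, showed the same pattern at 9.04, 8.60 and 6.90 in treated rats, against 5.53, 5.99 and 6.71 in controls. Fam107a, an actin-associated stress protein, was at 9.08, 8.50 and 8.04 in treated rats, against 6.26, 6.45 and 6.93 in controls (2.02 ± 0.21, adjusted p = 1.68e-05).

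Of 9 measured genes of hypertrophy and stretch, 1 was called at 3 d (Xirp1) and 2 passed an adjusted p of 0.05, Xirp1 and the transcription factor gene Myc (2.02, adjusted p = 0.0126). Over all genes 0.218% were called higher and 0.443% were higher at an adjusted p of 0.05. The list median was 0.26, against -0.05 over all genes. Nppa and Nppb, the natriuretic peptides, differed by -0.72 (adjusted p = 0.987) and 0.21 (adjusted p = 0.987) in limma, and Acta1, skeletal alpha actin, by -0.37 (adjusted p = 0.987). The atrial gene Nppa had an SD of 1.89 among the 8 controls, which include the rats with high atrial markers.

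**Figure D1:**
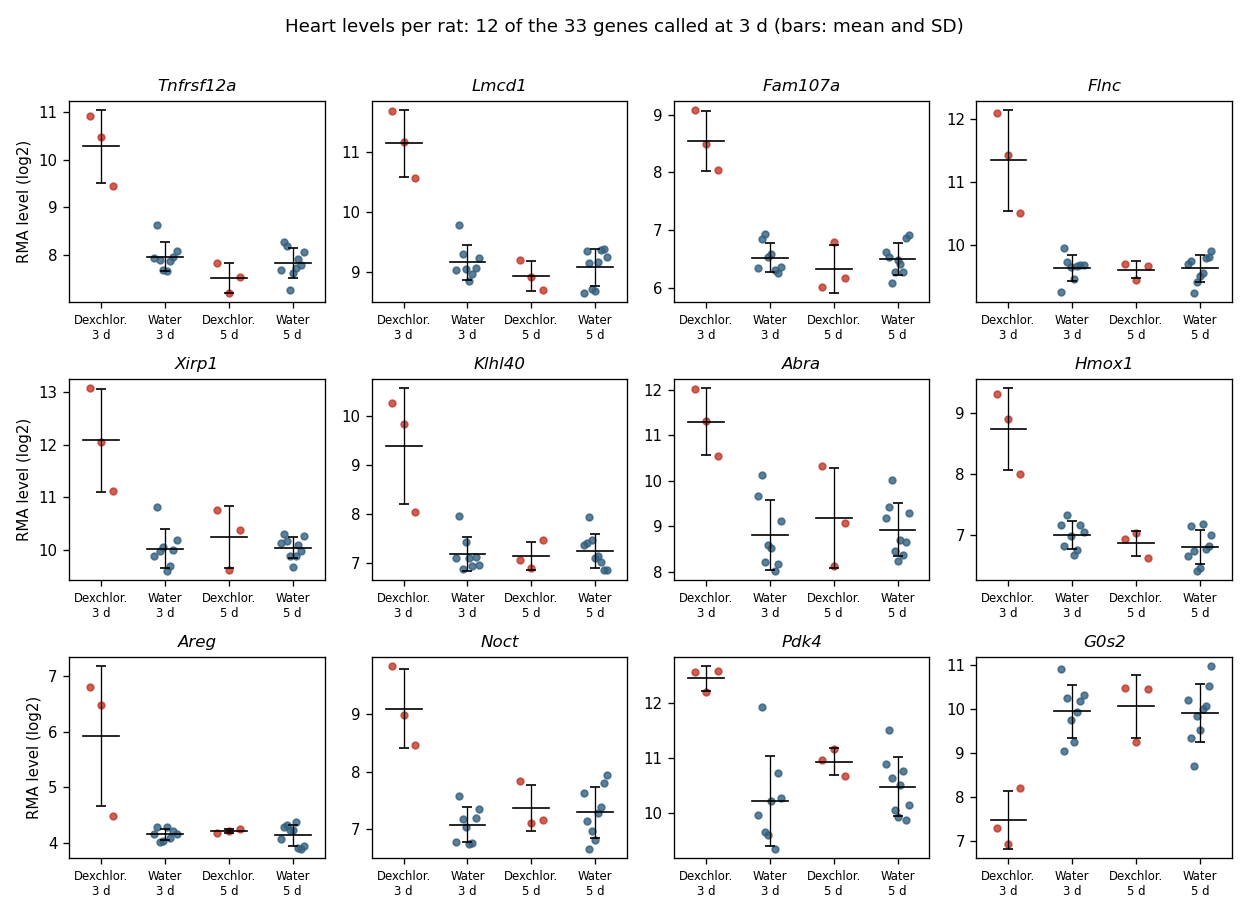
Log2 level of 12 of the 33 genes called at 3 d, 1 point per rat, in dexchlorpheniramine rats of 3 d, water controls of 3 d, dexchlorpheniramine rats of 5 d and water controls of 5 d, with the mean and SD of each group. The rats given dexchlorpheniramine for 3 d stand above the controls (below them for G0s2), and those given it for 5 d lie at the level of their controls.

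A cytokine receptor and growth factor ligands were called as well. Tnfrsf12a, the receptor for the cytokine TWEAK, had levels of 10.93, 10.48 and 9.44 in the treated rats of 3 d, against 7.67, 7.91 and 8.63 (lowest, median and highest) in the controls. It differed by 2.32 ± 0.25 (SE, 4.99-fold), with an adjusted p of 1.68e-05 in limma, and the groups did not overlap. Areg and Hbegf encode amphiregulin and heparin-binding EGF-like growth factor, ligands of the epidermal growth factor receptor. Areg was at 6.81, 6.48 and 4.48 in treated rats, against 4.01, 4.17 and 4.29 in controls (1.76 ± 0.27, adjusted p = 0.00131). Hbegf was at 8.33, 7.54 and 6.41 in treated rats, against 5.83, 5.99 and 6.45 in controls (1.39 ± 0.24, adjusted p = 0.00469). In both ligands the difference was carried by treated rats 1 and 2, and in Hbegf treated rat 3 lay below the highest control.

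Hmox1 encodes heme oxygenase 1, which degrades heme. It was at 9.32, 8.90 and 8.00 in treated rats of 3 d, against 6.67, 7.02 and 7.33 in controls (1.75 ± 0.21, 3.36-fold, adjusted p = 8.52e-05), with no overlap. Of 12 measured NRF2 targets, Hmox1 was called and Srxn1, sulfiredoxin, passed an adjusted p of 0.05 (1.72, adjusted p = 0.0364). Over all genes 0.218% were called higher and 0.443% were higher at an adjusted p of 0.05. Nqo1 and Txnrd1, 2 other NRF2 targets, differed by 0.02 (adjusted p = 0.994) and 0.33 (adjusted p = 0.931), and the median over the 12 was 0.04. The transcription factor genes Csrnp1 (1.75) and Maff (1.19), the cell cycle regulator Sertad1 (1.03) and the stress kinase gene Map3k6 (1.18) were called higher as well. Of 12 measured heat shock genes 0 were called, and Dnajb4, an HSP40 co-chaperone, passed an adjusted p of 0.05 (1.24, adjusted p = 0.0138).

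Among genes of fuel use, Pdk4, the kinase that shuts off pyruvate dehydrogenase, had levels of 12.58, 12.20 and 12.59 in the treated rats of 3 d, against 9.34, 10.10 and 11.94 (lowest, median and highest) in the controls. The difference was 2.24 ± 0.39 (SE, 4.71-fold, adjusted p = 0.00463). G0s2, an inhibitor of the triglyceride lipase Pnpla2, had levels of 7.30, 6.92 and 8.20 in treated rats, against 9.04, 10.05 and 10.90 in controls (-2.48 ± 0.41, 5.58-fold lower, adjusted p = 0.00218). Neither gene overlapped between the groups, and the 3 treated rats lay closer together for Pdk4 than for the cytoskeletal genes. Of 21 measured PPAR alpha targets, which include Pdk4 and genes of fatty acid oxidation, 1 was called (Pdk4), and the list median was 0.03. Over all genes 0.218% were called higher, and the median was -0.05.

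Of 13 measured glucocorticoid targets, 1 was called (Pdk4), 3 passed an adjusted p of 0.05 and 9 had an unadjusted p under 0.05, all of them higher. Over all genes 0.218% were called higher, 0.443% were higher at an adjusted p of 0.05 and 2.2% at an unadjusted p under 0.05. The list median was 0.97 at 3 d, against -0.05 over all genes. Mt2A, a metallothionein, was at 10.61, 8.77 and 8.56 in treated rats, against 7.55, 7.80 and 8.13 in controls (1.47, adjusted p = 0.0124). Klf9, a transcription factor gene, was at 11.27, 10.93 and 11.39 in treated rats, against 9.75, 10.17 and 10.62 in controls (1.00, adjusted p = 0.0138). Both separated the groups, whereas Fkbp5, an immunophilin of the receptor complex, missed the threshold at 1.35 (adjusted p = 0.114) and Tsc22d3, the target known as GILZ, differed by 0.10 (adjusted p = 0.987). At 5 d the list median was 0.13, and 0 of the 13 had an unadjusted p under 0.05.

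The remaining called genes spanned lipid mediators, a channel and nuclear proteins. Pla2g4a, cytosolic phospholipase A2, which frees arachidonic acid, differed by 1.79 (adjusted p = 0.00172), and Sphk1, sphingosine kinase 1, by 1.70 (adjusted p = 0.00468). Kcna5, the voltage-gated potassium channel Kv1.5, was at 7.53, 7.31 and 8.70 in treated rats, against 5.65, 6.02 and 7.04 in controls (1.60, adjusted p = 0.00469). It was the only called gene among 21 measured heart ion channels, whose median change was -0.04. Over all genes 0.218% were called higher, and the median was -0.05. Noct, a circadian phosphatase gene named nocturnin, differed by 2.01 (adjusted p = 0.000299), Tent5b, of the poly(A) polymerase family, by 1.88 (adjusted p = 0.000137), and Dot1l, the histone H3 lysine 79 methyltransferase, by 1.37 (adjusted p = 0.000299). Gfpt2, of the hexosamine pathway, differed by 1.59, Arid3b by 0.99, Sbno2 by 0.88 and Ifnlr1, a receptor for interferon lambda, by 1.21. Tmem252, LOC100912188, Pcdh20, Rab30 and Ccdc71l were also called higher, at 0.65 to 1.60, and Zfp608, a zinc finger gene, was called lower at -0.68.

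The treated rats differed from each other along this set as a whole. The median difference from the mean of the 3 d controls over the 31 higher genes was 2.34 in treated rat 1, 1.56 in treated rat 2 and 0.87 in treated rat 3. In the 8 controls it lay between -0.20 and 0.29, so that each treated rat was above each control. Treated rats 1, 2 and 3 were hybridised on different days. On the 2 of these days that also held 3 d controls, the 31 differences were all positive, with medians of 2.16 for treated rat 1 against 3 controls and 1.68 for treated rat 2 against 2 controls. The 31 genes were chosen on these same treated rats and controls, so the values in this paragraph describe them and are no separate check.

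The number of calls at 3 d depended on which rats were compared. It fell to 8 without treated rat 1 and to 16 without treated rat 2, and was 56 without treated rat 3, 74 without water control 5 d replicate 3 and 105 without the 2 controls that stood apart. It was 16 with hybridisation day as a fixed block, 17 with the in-life study as a random block, 1 with controls of every extraction campaign, and 0 with controls of the same extraction day (7 at an adjusted p of 0.05). Against the single 3 d control of the treated rats' own study 0 genes were called, 0 passed an adjusted p of 0.05 and 533 had an unadjusted p under 0.05 in limma. All 33, which were chosen on the same treated rats, kept their sign in each of these fits.

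That single control was itself high. It was the highest of the 8 controls of 3 d for 14 of the 31 genes and had the highest control median over them, 0.29. For Xirp1 it was at 10.82 and for Pdk4 at 11.94, the highest control level of each. The lowest treated rat of 3 d was above it for all 31 genes, and the median of the treated mean minus this control was 1.30. This control was 1 of the 8 on which the 31 genes were chosen, so that separation is no independent check. Whether the difference among control studies has a part in the result was not tested. For 7 called genes another probe set was on the array, and all 7 other probe sets changed in the same direction, 6 with an unadjusted p under 0.05. The other probe set changed much less for Dot1l (0.23 against 1.37), Fam107a (0.64 against 2.02) and Pcdh20 (0.29 against 1.22). It changed by a similar amount for Flnc (1.59 against 1.71), Rab30 (0.95 against 1.03), Pdk4 (2.54 against 2.24) and Tent5b (2.16 against 1.88).

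At 5 d, 0 genes were called in limma, 0 passed an adjusted p of 0.05 and 85 had an unadjusted p under 0.05 (137 by the methods' t-test, with 0 called). In limma 0.274% of all genes were higher and 0.324% lower at that unadjusted p. Together they are below the share of 0.05 that such a p gives when no gene changes. Without the 2 controls that stood apart 239 genes had such a p. The lack of calls at 5 d therefore does not show that no gene changed. The 31 genes higher at 3 d had a median change of 0.02 at 5 d, between -0.32 and 0.45, and 18 of them were positive. All 31 were higher in every treated rat of 3 d than in every treated rat of 5 d. Xirp1 was at 10.76, 9.61 and 10.37 in the treated rats of 5 d, against 9.68, 10.10 and 10.31 (lowest, median and highest) in the 9 controls of 5 d. Flnc was at 9.70, 9.45 and 9.67 in treated rats, against 9.24, 9.70 and 9.90 in controls, and its 95% confidence interval for the change ran from -0.45 to 0.40. Treated and control rats thus overlapped for both genes.

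**Figure D2:**
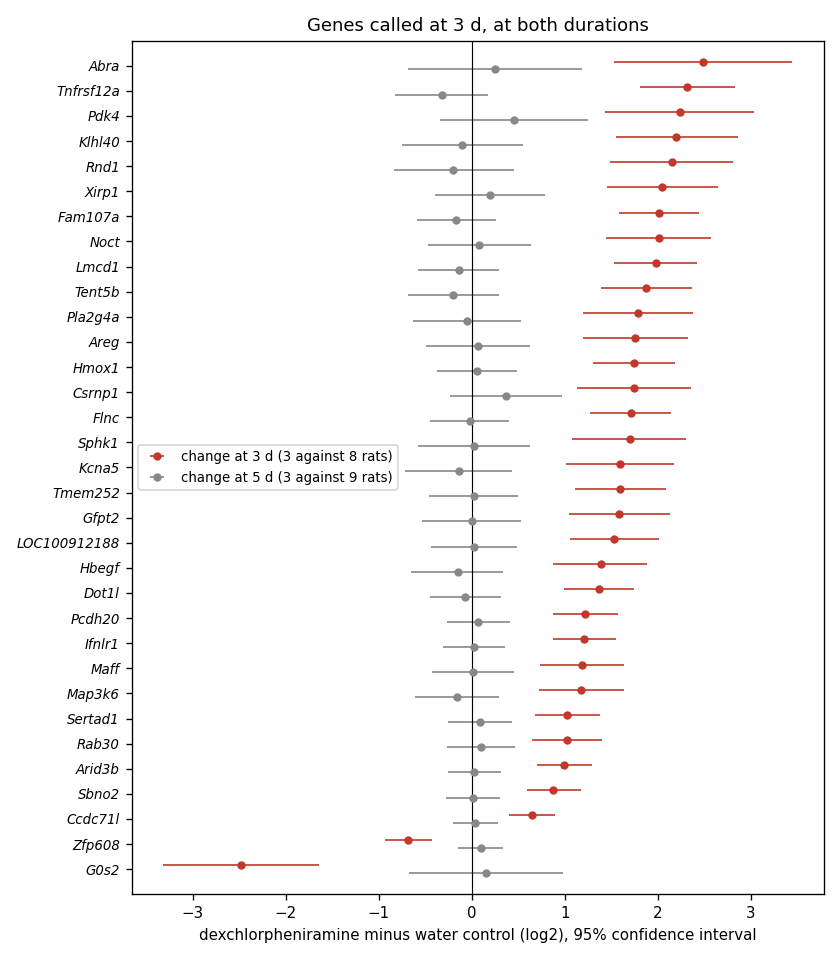
Change of each of the 33 genes called at 3 d (dexchlorpheniramine minus water control, log2) at 3 d and at 5 d, with 95% confidence intervals from limma. The 3 d changes lie between 0.65 and 2.49 for the 31 higher genes, and the 5 d changes of the same genes lie between -0.32 and 0.45.

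The difference between durations was tested directly, as the change at 5 d minus the change at 3 d. It passed an adjusted p of 0.05 in limma for 9 genes, 0.0633% of those tested, all smaller at 5 d and all among the 33. At an adjusted p of 0.01 with 1.5-fold the count was 4, or 0.0281%. The 9 genes were Tnfrsf12a (-2.64), Rnd1 (-2.35), Klhl40 (-2.31), Fam107a (-2.18), Lmcd1 (-2.12), Tent5b (-2.08), Flnc (-1.73), Hmox1 (-1.69) and Dot1l (-1.44). The count was 3 without treated rat 1 of 5 d, 4 without treated rat 2 or treated rat 3 of 5 d, 4 without treated rat 1 of 3 d, 5 without treated rat 2 of 3 d, 34 without treated rat 3 of 3 d, 14 without water control 3 d replicate 1, 20 without water control 5 d replicate 3, and 39 without both of these controls. It was 0 against controls of every campaign, of the same extraction day or of the own study, and 0 with hybridisation day as a fixed block. Because the 3 d genes were chosen for their change at 3 d, the smaller change at 5 d over the 31 is given as a description only.

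Immediate early genes, which transcribe within minutes of a stimulus and of handling, varied widely among rats of both groups. Of 19 measured, 0 were called at 3 d and 1 passed an adjusted p of 0.05, against 0.443% of all genes higher at that threshold. At 3 d 16 of the 19 were positive, with a median of 0.68, against 39% of all genes. Over both durations all 19 were positive, with a median of 0.70, against 39.9% of all genes. The part from 5 d rested on 1 rat: the median at 5 d was 0.95, and 0.03 without treated rat 1 of 5 d. Without that rat the median over both durations was 0.40. In limma 5 of the 19 were higher over both durations at an unadjusted p under 0.05, against 1.6% of all genes. Nr4a3, an orphan nuclear receptor gene, was at 11.58, 11.01 and 10.85 in treated rats of 3 d, against 4.09, 4.39 and 10.10 (lowest, median and highest) in controls (5.83 ± 1.21, adjusted p = 0.0204). Fos was at 11.35, 8.15 and 6.01 in treated rats of 3 d, against 4.19, 5.87 and 11.23 in controls, and at 12.47, 4.04 and 11.84 in treated rats of 5 d, against 4.20, 9.30 and 12.06 in controls. Fos thus covered almost the same range with and without the drug. Atf3 was at 11.03, 10.23 and 9.65 in treated rats of 3 d, against 4.61, 4.99 and 9.28 in controls, without passing the threshold (4.38, adjusted p = 0.169). Whether the state of these genes when the heart was taken has a part in the 3 d result was not tested.

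Averaged over both durations, 0 of 14217 genes were called (0%), 0 passed an adjusted p of 0.05, and 578 had an unadjusted p under 0.05 in limma. The methods' t-test called 0 and gave 601. In limma 1.6% of all genes were higher and 2.47% lower at that unadjusted p, together also below a share of 0.05. The smallest adjusted p was 0.114. The 20 genes of smallest p, none of them called, included genes of red blood cells, nuclear receptors of the circadian clock and genes of mitosis. With both durations pooled, the 6 treated rats and the 17 controls overlapped in all 20. Within a duration, overlap did not always hold. For Ahsp and Nusap1, a gene of mitosis, every treated rat was below every control of its duration, at 3 d and at 5 d. For Alox15 the groups overlapped at both durations.

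The red blood cell genes had negative differences at both durations. Ahsp, the chaperone of alpha globin, was at 7.04, 7.03 and 6.79 in treated rats of 3 d and 6.68, 6.57 and 6.80 in treated rats of 5 d, against 6.93, 7.48 and 8.13 (lowest, median and highest) in the 17 controls. Alas2, which starts heme synthesis in red cells, was at 8.57, 8.61 and 8.88 in treated rats of 3 d and 9.00, 7.82 and 7.92 in treated rats of 5 d, against 7.74, 9.75 and 10.69 in controls. The lowest Alas2 level of all belonged to water control 5 d replicate 3, which stood apart. Within a duration, the lowest Ahsp control was at 7.36 at 3 d and 6.93 at 5 d, above every treated rat of that duration. For Alas2 the lowest control of 3 d was at 9.25, above every treated rat of 3 d, and the groups overlapped at 5 d. The differences were -0.77 ± 0.13 (SE, adjusted p = 0.114) for Ahsp, -1.16 ± 0.23 (adjusted p = 0.233) for Alas2 and -1.20 ± 0.28 (adjusted p = 0.429) for Slc4a1, the anion exchanger of the red cell membrane. A second Slc4a1 probe set, of similar mean level (6.89 against 7.21), differed by only -0.38.

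All 5 measured red blood cell genes had a negative difference over both durations with an unadjusted p under 0.05 in 5 of 5, and a list median of -0.77. Over all genes 60.1% were negative, 2.47% were lower at an unadjusted p under 0.05 and the median was -0.02. At 3 d alone Ahsp passed an adjusted p of 0.05 (-0.86, adjusted p = 0.0414). Without water control 5 d replicate 3, 1 gene was called over both durations (Alas2), and 5 passed an adjusted p of 0.05 (Ahsp, Alas2, Car2, Hbb and Nr1d2). In whole hearts, fewer red cells and less RNA per cell cannot be told apart. Hba-a3, an alpha globin gene whose probes may also bind near-identical copies, differed by -0.77, and Hbb by -0.51.

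Nr1d2 and Nr1d1 encode REV-ERB beta and alpha, heme-binding repressors of the circadian clock. Nr1d2 was at 9.07, 9.08 and 9.69 in treated rats of 3 d and 8.95, 8.84 and 8.59 in treated rats of 5 d, against 6.82, 8.06 and 8.79 in the 17 controls (0.97 ± 0.18, adjusted p = 0.114). Nr1d1 was at 7.60, 8.08 and 8.77 in treated rats of 3 d and 8.17, 8.66 and 8.51 in treated rats of 5 d, against 6.06, 7.45 and 8.10 in controls (0.96 ± 0.23, adjusted p = 0.429). The treated rats lay in the upper part of the control range or above it. Within a duration, every treated rat was above every control for Nr1d2 at 3 d and for Nr1d1 at 5 d. The groups overlapped for Nr1d2 at 5 d and for Nr1d1 at 3 d. Of 16 measured clock genes, 0 were called and the list median over both durations was 0.00. At an unadjusted p under 0.05 in limma, 4 of the 16 were higher and 2 lower, against 1.6% and 2.47% of all genes. At 3 d alone 5 were higher and 2 lower at that p, against 2.2% and 4.66% of all genes. Over both durations Bmal1, their activator, differed by -0.28 and Dbp, an output gene, by 0.31.

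**Figure D3:**
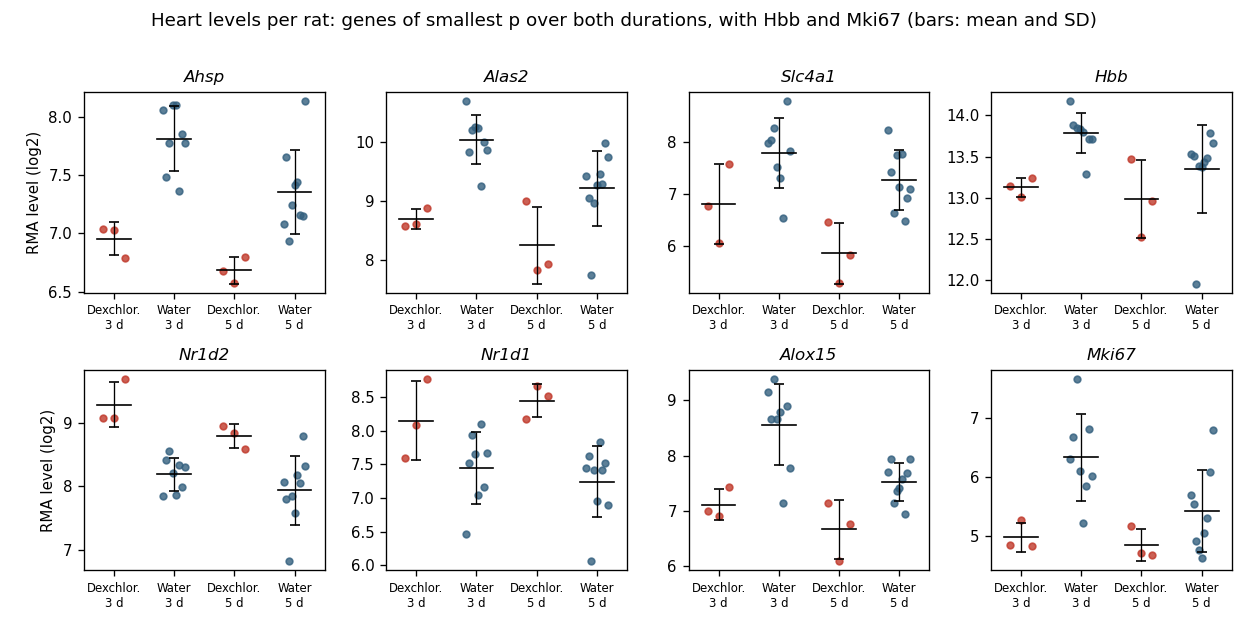
Log2 level of Ahsp, Alas2, Slc4a1, Hbb, Nr1d2, Nr1d1, Alox15 and Mki67, 1 point per rat, in dexchlorpheniramine rats and water controls of 3 d and of 5 d, with the mean and SD. Most treated rats lie in the lower part of the control range or below it for the red cell genes, Alox15 and Mki67. For Nr1d2 and Nr1d1 most lie in its upper part or above it. Within a duration the groups do not overlap for Ahsp at 3 d and 5 d. Nor do they for Alas2 and Nr1d2 at 3 d and for Slc4a1 and Nr1d1 at 5 d.

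Genes of the cell cycle were read as a list. Mki67, a marker of dividing cells, was at 4.85, 5.27 and 4.84 in treated rats of 3 d, against 5.23, 6.21 and 7.65 in controls, and at 5.17, 4.72 and 4.68 in treated rats of 5 d, against 4.64, 5.31 and 6.79 in controls. Every treated rat was below the control median of its duration. Of 22 measured cell cycle genes, 0 were called at 3 d, 1 passed an adjusted p of 0.05 (Ube2c, -0.84, adjusted p = 0.0471), and 9 had an unadjusted p under 0.05, all lower, against 4.66% of all genes lower at that p. At 3 d 20 of the 22 were negative, against 61% of all genes. The list median was -0.41 at 3 d and -0.16 at 5 d, and that of all genes -0.05 at 3 d and 0.00 at 5 d. Alox15, a lipoxygenase that oxygenates arachidonic acid, differed by -1.15 over both durations (adjusted p = 0.258).

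The H1 receptor is the target of dexchlorpheniramine. Of 10 measured genes of histamine receptors and histamine metabolism, 0 passed any threshold at either duration or over both, and 0 had an unadjusted p under 0.05. Their median change was 0.04 at 3 d and -0.03 at 5 d. Hrh1, the receptor that dexchlorpheniramine blocks, was at 4.85, 4.48 and 4.83 in treated rats of 3 d and 4.56, 4.59 and 4.80 in treated rats of 5 d, against 4.41, 4.67 and 4.94 (lowest, median and highest) in the 17 controls, with an average change of 0.02 ± 0.08 (SE).

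Over both durations Hrh2 differed by -0.01 and Hrh3 by 0.07. Hdc, histidine decarboxylase, which makes histamine, differed by 0.08, Hnmt, which methylates it, by -0.04 and Aoc1, which oxidises it, by 0.11. Hrh4 (0.00), Aldh7a1 (-0.07), Slc22a3 (-0.36) and Slc18a2 (0.04), an oxidising enzyme and transporters among them, completed the list. The levels of Hrh1, Hrh2, Hrh4, Hdc and Hnmt, mostly under 5, were near the low end of the array's values, which started at 3.15. Of 14 measured muscarinic and cholinergic genes 0 had an unadjusted p under 0.05 over both durations, and Chrm2, the main muscarinic receptor of the heart, differed by -0.06 ± 0.17 (SE). Of 23 measured genes of Gq and calcium signalling 0 were called, with a median change of -0.01 over both durations. At 3 d their median was -0.09, and 4 were lower and 1 higher at an unadjusted p under 0.05 in limma. Over all genes 4.66% were lower and 2.2% higher at that p. At 5 d 0 of the 23 had such a p.

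Cationic amphiphilic drugs can load lysosomes with phospholipid. Of 19 measured genes of the lysosome and phospholipid storage, 0 had an unadjusted p under 0.05, with median changes of -0.12 at 3 d and 0.03 at 5 d. Of 15 measured genes of cholesterol synthesis and uptake, 0 were called, 5 had an unadjusted p under 0.05 at 3 d, all lower, against 4.66% of all genes, and the median was -0.14, against -0.05 over all genes. Among 34 measured genes of oxidative phosphorylation 0 were called and the medians were -0.02 at 3 d and 0.04 at 5 d. At 5 d, 6 of 12 measured fast skeletal muscle genes were higher at an unadjusted p under 0.05. All 6 rested on treated rat 1 of 5 d, which had Myh4 at 8.17, against at most 4.09 in any control, and without it the count was 0.

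**Figure D4:**
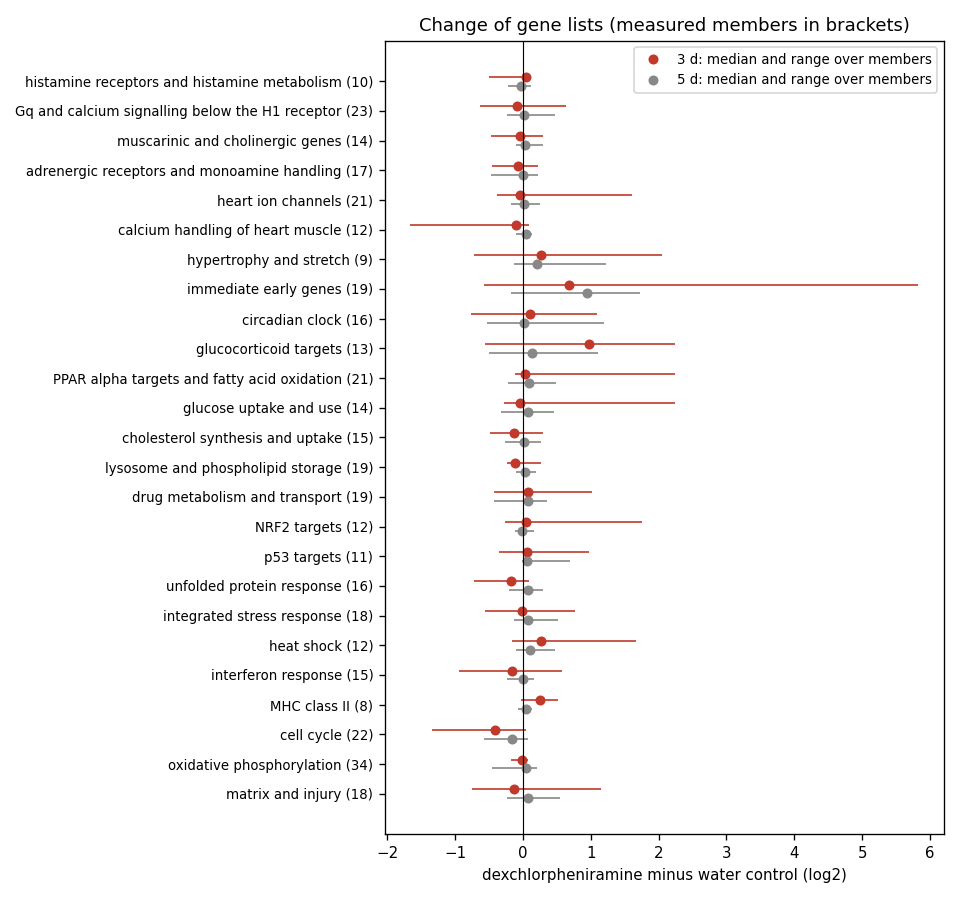
Median change (point) and range (line) of each gene list, dexchlorpheniramine minus water control on the log2 scale, at 3 d and at 5 d, with the number of measured members in brackets. The median of glucocorticoid targets was 0.97 at 3 d and 0.13 at 5 d, that of the histamine list 0.04 at 3 d and -0.03 at 5 d.

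Dexchlorpheniramine was compared directly with 3 other compounds given in water by oral gavage for the same durations, with RNA extracted on the same day: oxybutynin, an antimuscarinic, at 230 mg/kg, gabapentin, an anticonvulsant, at 2500 mg/kg, and phenytoin, a sodium channel blocker, at 572 mg/kg (3 rats at each duration). The doses differ, and each compound was given in an in-life study of its own, so that compound and study cannot be told apart. All 4 share the water controls. The comparisons at 3 d were added after the data were seen.

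At 3 d, the 31 genes set dexchlorpheniramine apart from oxybutynin. Xirp1 was at 13.07, 12.05 and 11.12 after dexchlorpheniramine, against 10.13, 9.91 and 10.02 after oxybutynin, and Tnfrsf12a at 10.93, 10.48 and 9.44, against 7.40, 8.00 and 7.48. All 31 genes were higher after dexchlorpheniramine, with a median difference of 1.68, 29 of them without overlap of the rats, which held for 13.5% of all genes in that direction. In limma, 5 of the 31 were called higher and 29 passed an adjusted p of 0.05, while 0.0703% and 2.46% of all genes did so in that direction. The 31 were chosen on the dexchlorpheniramine rats, which are the same here. Of all genes 48 (0.338%) were called at 3 d, 10 higher and 38 lower, and 9.14% were lower at an adjusted p of 0.05. The calls numbered 2 without treated rat 1, 2 without treated rat 2 and 864 without treated rat 3. Over both durations 0 genes were called in limma or by the methods' t-test, 943 passed an adjusted p of 0.05 (6.63%, of which 1.05% higher) and 4935 had an unadjusted p under 0.05, and 46 were called without treated rat 1 of 5 d.

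Against gabapentin and phenytoin at 3 d, 0 of the 31 genes passed the test. Xirp1 was at 13.07, 12.05 and 11.12 after dexchlorpheniramine, against 11.09, 10.62 and 12.30 after gabapentin and 11.14, 11.58 and 11.09 after phenytoin. Pdk4 was at 12.58, 12.20 and 12.59 after dexchlorpheniramine, against 13.09, 12.82 and 12.72 after gabapentin and 12.58, 12.71 and 12.60 after phenytoin. The rats of the 3 compounds overlapped for Xirp1, and for Pdk4 those of dexchlorpheniramine and phenytoin did.

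Against gabapentin 0 of the 31 passed an adjusted p of 0.05 in limma, 20 were higher and the median difference was 0.25. Of all genes 0% were higher at that threshold and 0.155% lower, 0 were called and 3585 had an unadjusted p under 0.05; without treated rat 3 of 3 d 12 genes were called. For Xirp1 the difference was 0.74 (95% confidence interval -0.26 to 1.74, adjusted p = 0.3), and for Flnc 0.31 (-0.48 to 1.10, adjusted p = 0.573). Against phenytoin 0 of the 31 passed an adjusted p of 0.05, 24 were higher and the median difference was 0.49, with Xirp1 at 0.81 (-0.01 to 1.63, adjusted p = 0.198) and Tnfrsf12a at 1.03 (0.42 to 1.64, adjusted p = 0.0788). Of all genes 0.0141% were higher at that threshold and 0.183% lower, 0 were called against phenytoin at 3 d in limma, 3684 had an unadjusted p under 0.05, and 482 were called without treated rat 3 of 3 d. These intervals reach past a doubling, so they do not show that the compounds act alike. Over the 31 genes the median difference from the 3 d water controls was 2.34, 1.56 and 0.87 in the dexchlorpheniramine rats, 1.16, 0.95 and 1.85 in the gabapentin rats, 1.20, 1.13 and 1.14 in the phenytoin rats and -0.04, -0.05 and 0.07 in the oxybutynin rats.

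**Figure D5:**
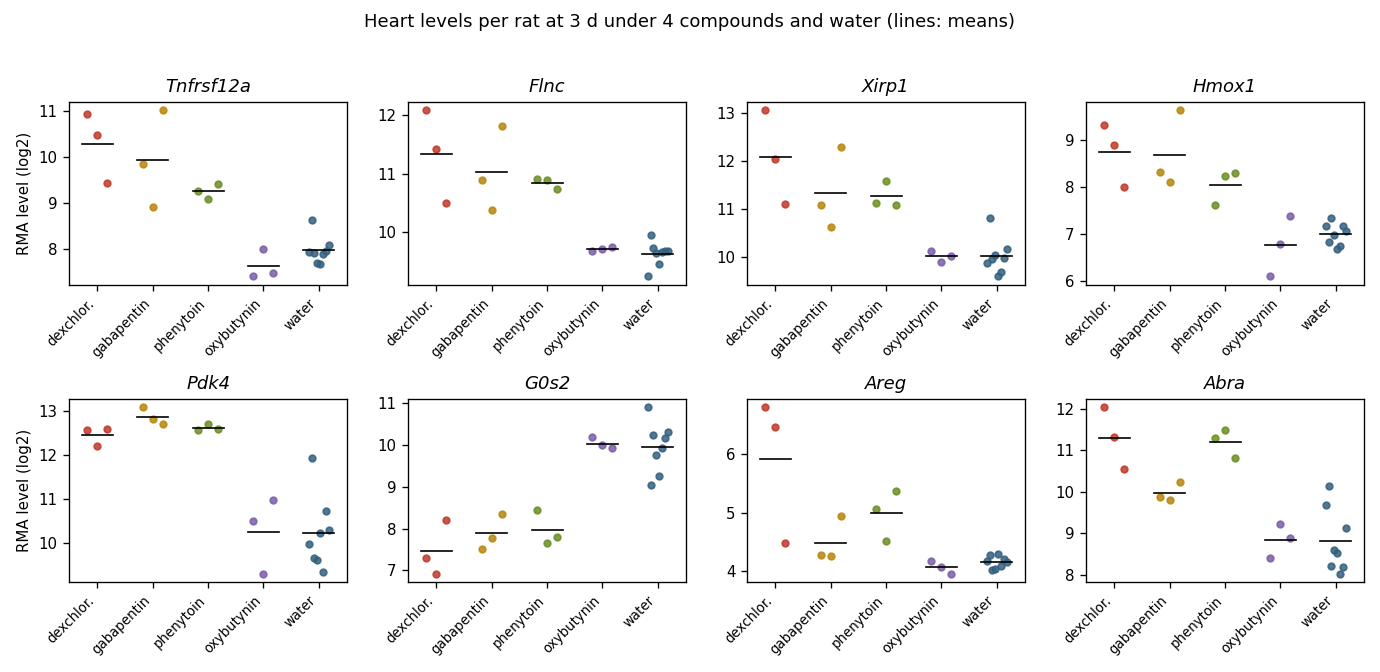
Log2 level of 8 genes at 3 d, 1 point per rat, after dexchlorpheniramine, gabapentin, phenytoin and oxybutynin and in the 8 water controls. The gabapentin and phenytoin rats overlap the dexchlorpheniramine rats for most of the 8 genes, and the oxybutynin rats lie with the water controls. The gabapentin rats lie below the dexchlorpheniramine rats for Abra and above them for Pdk4, and the phenytoin rats lie below them for Tnfrsf12a. For Areg the gabapentin rats were at 4.27, 4.25 and 4.94, against at most 4.29 in the water controls.

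Over both durations, 2 genes were called lower after dexchlorpheniramine than after gabapentin and 0 higher. Per2, a repressor of the circadian clock, differed by -1.01 (adjusted p = 0.0019) and S100a9, a calcium-binding protein of neutrophils, by -1.60 (adjusted p = 0.00238). Per2 was at 7.60, 7.45 and 8.01 after 3 d of dexchlorpheniramine, against 8.65, 8.71 and 8.57 after gabapentin and 6.98, 7.28 and 8.13 (lowest, median and highest) in the 3 d water controls. At 5 d it was at 6.74, 7.04 and 6.88 after dexchlorpheniramine, against 7.93, 7.79 and 8.15 after gabapentin and 7.22, 7.31 and 7.91 in the 5 d water controls. The dexchlorpheniramine rats were below the gabapentin rats at both durations, within the range of the water controls at 3 d and below all of them at 5 d (-0.53, adjusted p = 1 in limma). Averaged over both durations against water, neither gene differed at an adjusted p of 0.05 (Per2 -0.14, S100a9 -0.19). The count was 7 without treated rat 3 of 3 d, 1 without treated rat 2 of 3 d and 0 without treated rat 3 of 5 d.

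Against phenytoin 4 genes were called over both durations, all lower after dexchlorpheniramine. Myh7, the slow beta myosin heavy chain that rises in the stressed rat heart, differed by -2.15 (95% confidence interval -2.78 to -1.52, adjusted p = 0.00942). It was at 11.51, 10.14 and 11.02 after 3 d of dexchlorpheniramine, against 13.89, 14.20 and 12.34 after phenytoin and 9.25, 10.72 and 12.04 (lowest, median and highest) in water controls. At 5 d it was at 12.38, 12.13 and 12.29 after dexchlorpheniramine, against 13.79, 13.97 and 14.18 after phenytoin and 8.72, 11.23 and 12.30 in water controls. The dexchlorpheniramine rats lay within the range of the water controls at 3 d and at its upper end at 5 d, with 1 rat above it, and differed from water by 0.24 (adjusted p = 0.987) at 3 d and 1.18 (adjusted p = 1) at 5 d. The others were Ptgr1 (-0.95), Sbsn (-0.78) and Tmem192 (-0.68), each with an adjusted p of 0.00836. The count was 143 without treated rat 3 of 3 d and 125 without treated rat 1 of 5 d, 1 without treated rat 1 of 3 d, and 0 without treated rat 2 of 3 d, treated rat 2 of 5 d or treated rat 3 of 5 d.

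Each of 72 conditions at 3 d with matched controls was fitted against those controls, many of which conditions share. Over the 31 genes, which were chosen on dexchlorpheniramine, the median change was 1.70 after dexchlorpheniramine, 1.47 after tacrolimus, 1.33 after chlorobenzene, 1.31 after gabapentin, and 1.25 after both phenytoin and dexamethasone. At 5 d dexchlorpheniramine held rank 43 of 79. Xirp1, Flnc, Abra, Lmcd1, Tnfrsf12a, Areg, Rnd1, Noct, Csrnp1 and Dot1l had their highest 3 d change after dexchlorpheniramine. The next highest was close for Abra (2.49, phenytoin 2.39), Lmcd1 (1.98, dexamethasone 1.89), Tnfrsf12a (2.32, tacrolimus 2.12) and Dot1l (1.37, famotidine 1.22). It was furthest for Areg (1.76, spironolactone 1.07) and Xirp1 (2.05, tacrolimus 1.58). The gaps of Flnc, Rnd1, Noct and Csrnp1 lay between these. For Pdk4 it held rank 4, with gabapentin highest at 2.66, for Hmox1 rank 6, with sulindac highest at 3.24, and for Kcna5 rank 8.

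For the genes of smallest p over both durations, 95 profiles of a compound and dose were fitted in the same way. Nr1d2 held rank 48 of the 95, and its median change over the profiles, 0.97, was the change after dexchlorpheniramine itself. Nr1d1 held rank 36, with a median of 0.73. Ahsp held rank 24 from the lowest, with a median of -0.38, and Alas2 rank 21 from the lowest, with a median of -0.50. Kdm6b, a histone H3 lysine 27 demethylase gene, had its highest value of the 95 profiles after dexchlorpheniramine (0.44, adjusted p = 0.444) and Znf48 its lowest (-0.51, adjusted p = 0.429), though neither passed the threshold against water.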

How the data were processed

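Heart RNA of rats was measured on Affymetrix rat genome arrays. The authors deposited log2 values, 1 per probe set and array, and the submitters' notes name RMA (background correction, normalization between arrays, probe summary), with no version given in those notes; frma is named in the methods of the paper. An array has no depth, so precision is set by how many rats there were.

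The values were used as deposited. Of 31099 probe sets, 57 controls were left out and 20826 had 1 gene symbol in the platform annotation, of which 20758 matched the reference gene table (0 symbols updated); 436 had several symbols and 9780 none. Each of 14217 genes was read from 1 probe set, the brightest on average. No array column was left out (0 unused). Each rat entered with 1 array.

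Treated rats and dose-0 rats matched on vehicle, route, duration and RNA extraction campaign were compared with lmFit and eBayes of limma 3.58.1, run in R 4.3.3, with duration as a covariate for both durations together and in a fit of 4 groups for each duration and their difference. A call needed a Benjamini-Hochberg adjusted p of 0.01 and a 1.5-fold change, after the methods. The scripts were tested on simulated data. Named genes were the 20 of smallest p (0 being called) over both durations, up to 6 called genes each way in the other planned comparisons, and members of the gene lists; the genes of the 3 d calls were added after their values were seen. The members and lists were chosen with earlier results of these data known. In-life studies were read from animal codes in the labels. Promoters were taken from RefSeq (GRCr8), and figures drawn with matplotlib 3.10.9 in Python 3.11.15 with pandas 2.3.3.

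Alternatives were other controls, other normalization, another probe set rule, a filter on low levels, trend and robust eBayes, the t-test of the methods, hybridisation day and in-life study as blocks, and leaving out each rat.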

Additional observations from a re-analysis of the deposited data

Results flagged for a closer look

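In the groups of 8 and 9 controls, 49 named genes each were searched for a rat far from the others of its group by Dixon's test, which chance alone meets in about 1 of 20 groups; 3 genes at 3 d and 5 at 5 d met it. Water control 3 d replicate 2, the control of the treated rats' own study, was highest for Tnfrsf12a (8.63, next 8.08) and Dnajb4 (10.93, next 10.28). Water control 3 d replicate 1 was highest for Pla2g4a (8.52, next 7.54). Water control 5 d replicate 3, whose array stood apart, was highest for Sphk1 (7.08, next 6.23) and Map3k6 (7.75, next 6.72) and lowest for Alas2 (7.74, next 8.96) and Tcap (10.81, next 11.57). Water control 5 d replicate 4 was lowest for Tmem252 (5.99, next 6.72).

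For 9 genes the change differed between durations by limma's test of the interaction at an adjusted p of 0.05. The change at 5 d minus the change at 3 d was -2.64 for Tnfrsf12a, -2.35 for Rnd1, -2.31 for Klhl40, -2.18 for Fam107a, -2.12 for Lmcd1, -2.08 for Tent5b, -1.73 for Flnc, -1.69 for Hmox1 and -1.44 for Dot1l. Fam107a, Lmcd1 and Tnfrsf12a passed in each of the 23 fits that left out 1 rat.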

How the results depend on the processing

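Over both durations, where 0 genes were called and 0 passed an adjusted p of 0.05, controls of every campaign gave 4 calls and 10 genes at 0.05, quantile normalization anew 2 and 5, and leaving out both controls that stood apart 1 and 5. Within the hybridisation day that held treated and control rats of both durations the counts were 0 and 0, with 144 genes at an unadjusted p under 0.05 in limma; another day held treated rats but no 5 d control, so that no fit over both durations was made there. The mean of all probe sets gave 1 gene at 0.05. Leaving out 1 rat at a time gave 0 to 1 calls and 0 to 5 genes at 0.05. The 20 named genes kept their direction in all alternatives.

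At 3 d, against 33 calls, quantile normalization gave 82, controls of every campaign 1, controls of the same study 0, controls extracted on the same day 0, hybridisation day as a fixed block 16, study as a random block 17 and leaving out both controls that stood apart 105; leaving out 1 rat gave 8 to 74. At 5 d the count was 0 in every alternative run. For the difference between durations, against 9, the methods' t-test gave 4, hybridisation day as a random block 17 and as a fixed block 0, study as a random block 14, controls of every campaign, of the same study and of the same extraction day 0 each, and leaving out both controls that stood apart 39; leaving out 1 rat gave 3 to 34. The alternatives for 3 d, and those of study, extraction day and rats that stood apart, were chosen after seeing the data. The cause of these shifts was not tested.

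Against oxybutynin, with 0 calls over both durations, trend and robust eBayes gave 1 and leaving out 1 rat 0 to 46; at 3 d, against 48, quantile normalization gave 9, the methods' t-test 3, trend and robust eBayes 97 and leaving out 1 rat 2 to 864. Against gabapentin, with 2 calls, the upper 60% of genes gave 5, the t-test 0, trend and robust eBayes 4 and leaving out 1 rat 0 to 7; at 3 d, against 0, these gave 1 (upper 60%), 2 (trend) and 0 to 12. Against phenytoin, with 4 calls, the upper 60% of genes gave 39, the t-test 0, trend and robust eBayes 47 and leaving out 1 rat 0 to 143; at 3 d, against 0, trend gave 5 and leaving out 1 rat 0 to 482. No result reversed its direction.

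No paired analysis was possible because the labels give no numbers that pair treated and control rats. With 3 treated rats at each duration, and 1 control of the same study, the number of arrays limits the precision of each change.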
